A study of Mus musculus with 24 samples.

Results

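DSIF and NELF are the protein complexes that hold RNA polymerase II shortly after it has started a gene. The genes for their subunits, Supt5 and Supt4a for DSIF and Nelfa, Nelfb, Nelfcd and Nelfe for NELF, are described here in activated mouse B cells from which Spt5 was depleted. They are 6 of the 14106 genes in the table of read counts, found there by gene name, and all 6 were among the 12024 genes that had enough counts to be tested. Spt5, the product of Supt5, binds the polymerase together with Spt4, the small protein made from Supt4a. The pair helps to set up the pause and, once the kinase P-TEFb has phosphorylated Spt5, travels with the polymerase as an elongation factor. NELF is built from a pair of NELF-A with NELF-C/D and a pair of NELF-B with NELF-E, needs DSIF to bind well, and leaves when the pause ends. In B cells Spt5 is also known as a partner of AID, the enzyme that starts class switching.

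The samples were splenic B lymphocytes of mice, stimulated in culture with interleukin 4 and lipopolysaccharide. Both groups carried ERT2-cre, a tamoxifen-activated recombinase, on 1 allele of the broadly active Rosa26 locus (Rosa26ERT2-cre/+), and both received 2 µM 4-hydroxytamoxifen (4-HT) for 32 h after 28 h of activation, 60 h in all. In the 3 libraries called Spt5-depleted, 1 allele of the Spt5 gene was floxed and the other was null (Supt5hFl/-); the 3 control libraries, called WT, had neither change. The null allele is therefore part of every difference below and cannot be told apart from the induced deletion. Both mature and immature are used for these cells in the labels, which give no strain, age or sex. They do not say either whether the libraries are from separate animals, so a p-value reflects the spread among these libraries only, which may be technical. What was counted was poly(A) RNA, not protein.

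Depth was 23340978 to 25649611 counts in the WT libraries and 17306549 to 21441575 in the depleted libraries. Summed over 7 B cell markers the level was 12186 to 12987 CPM (read count relative to library size, scaled by TMM) in WT and 12656 to 14839 CPM in depleted libraries. The 7 T cell markers summed to 202 to 226 and 168 to 193 CPM, and 1 marker of each of these lists was lower. For 3 NK cell markers the sums were 10.2 to 16.1 and 5.52 to 10.4 CPM, with 1 of 2 tested ones lower. For 6 macrophage and monocyte markers they were 20.2 to 26.6 and 22.8 to 49.2 CPM, with 3 of 5 tested ones higher, and for 4 dendritic cell markers 85.4 to 99.6 and 95.8 to 97.4 CPM, with 2 of 3 tested ones higher. Neutrophil markers summed to at most 3.93 CPM and red cell markers to at most 0.281 CPM in any library. Higher and lower here mean an edgeR adjusted p under 0.05, which 31.8% of all tested genes passed as higher and 30.6% as lower. With lists this short, no shift in cell types is read from these counts. The part of other cell types in the results was not tested. Xist was at 468 to 914 CPM in WT and 1.00 to 1.73 CPM in depleted libraries, and the Y-linked gene Ddx3y was at 0 to 0.0421 and 39.3 to 44.1 CPM. The groups therefore differ in sex-linked RNA exactly as they differ in genotype, and these differences cannot be told apart for any gene below. In bulk RNA, fewer cells that express a gene and less of its RNA per cell cannot be told apart either.

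The stretch before the start site is shown for the members found in the RefSeq promoter table, 4 of 6. Any bearing of these sequences on the levels below was not tested. Each line is the 150 bases that end just before the start, 5′ to 3′ on the gene's own strand, in build GRCm38.p6, which is not the build of the counts. Capitals mark GGGCGG, the GC box, on either strand (CCGCCC is its other strand), and CCGGAAG, a form of the site bound by ETS factors, called the ETS motif here. The motifs were chosen after the sequences had been read.
Supt5, chr7:28338720-28338869, minus strand: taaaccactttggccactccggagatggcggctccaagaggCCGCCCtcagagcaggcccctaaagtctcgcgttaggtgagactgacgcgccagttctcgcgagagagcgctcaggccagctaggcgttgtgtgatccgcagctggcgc
Supt4a, chr11:87737401-87737550, plus strand: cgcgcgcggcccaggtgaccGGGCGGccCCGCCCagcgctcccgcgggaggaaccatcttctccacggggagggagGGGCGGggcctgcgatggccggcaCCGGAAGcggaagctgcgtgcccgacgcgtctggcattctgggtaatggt
Nelfa, chr5:33936272-33936421, minus strand: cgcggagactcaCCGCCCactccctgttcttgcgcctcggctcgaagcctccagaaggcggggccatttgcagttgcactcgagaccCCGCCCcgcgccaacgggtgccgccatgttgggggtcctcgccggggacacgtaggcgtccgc
Nelfb, chr2:25211490-25211639, minus strand: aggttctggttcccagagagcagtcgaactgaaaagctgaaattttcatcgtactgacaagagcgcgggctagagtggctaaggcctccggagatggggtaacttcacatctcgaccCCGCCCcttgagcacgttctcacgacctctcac
Supt4a held 3 GC boxes and 1 ETS motif, Nelfa 2 GC boxes, and Supt5 and Nelfb 1 GC box each. Of 32851 RefSeq promoters, 28.6% held a GC box and 5.52% an ETS motif in the same window. TATAAA, the TATA box, CCAAT, the CCAAT box, and AAGATGGC, part of the site bound by YY1, matched 0 of the 4 windows on either strand, against 7.57%, 24.5% and 0.861% of all promoters. These are exact matches of letters and do not show that a factor binds there. For YY1 and ETS factors only this 8-letter form and this 7-letter form were searched. Other forms of their sites were not counted and may lie in the windows, so 0 matches do not mean that a site is absent.

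At an adjusted p under 0.05, Supt4a was higher in depleted cells, Supt5, Nelfa and Nelfe were lower, and Nelfb and Nelfcd did not pass. That is 4 of 6 members called, where 62.4% of all tested genes were called (31.8% higher and 30.6% lower), so the share of members called is near the background. The values of the depleted and WT libraries did not overlap for the same 4 members, as for 67.5% of all tested genes. Supt5, among these 4, is the gene targeted by the design, so its call says little about how the members respond. The members differ in direction and size. The lowest was the targeted Supt5, at a 15.3-fold lower level, and the highest its partner Supt4a, at a 2.69-fold higher one.

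**Figure D1:**
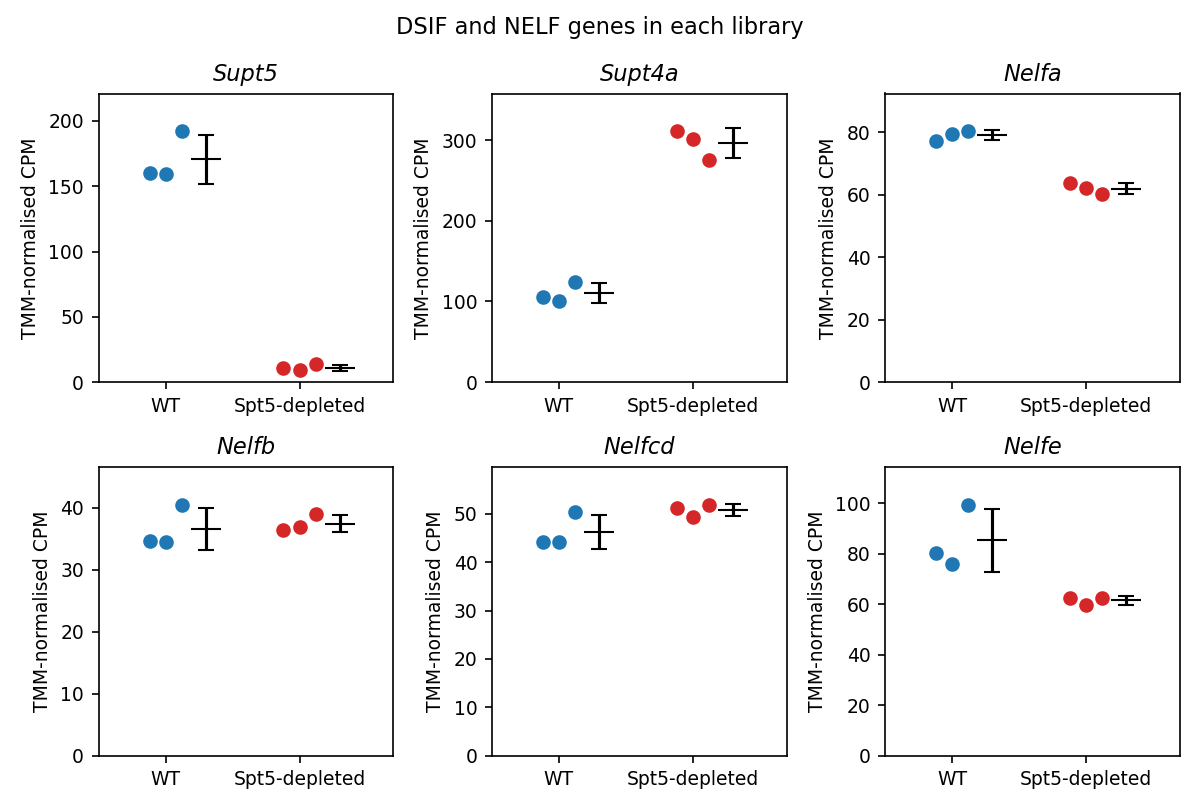
Level of each DSIF and NELF gene (y axis, TMM-normalised CPM, from 0) in WT (blue) and Spt5-depleted (red) libraries, 1 point per library, with the mean and SD in black. Supt5 lies between 159.6 and 192 CPM in WT and between 9.18 and 13.6 CPM in depleted libraries, Supt4a is higher in each depleted library, Nelfa and Nelfe are lower in each, and the Nelfb and Nelfcd points overlap between groups.

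In WT libraries Supt5, the targeted gene, was at 159.9, 159.6 and 192 CPM, and in depleted libraries at 10.6, 9.18 and 13.6 CPM. Each depleted library thus kept 5.38% to 7.97% of the WT mean, from 189 to 314 counts, and the groups lay far apart. The log2 fold change was -3.94 ± 0.14 (SE; edgeR adjusted p = 1.26e-10), and 0.0998% of tested genes had a lower value. Of all tested genes 7.63% passed with a fall of at least 2-fold. The sources used here do not give the exons that the recombinase removes, and which transcripts the remaining counts come from was not tested.

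Supt4a, which encodes the partner of Spt5, was at 106, 100.02 and 124 CPM in the WT libraries. In the depleted libraries it was at 311, 301 and 275 CPM, so the lowest depleted library had over 2 times the level of the highest WT library. Supt4a had a log2 fold change of 1.43 ± 0.10 (SE; edgeR adjusted p = 1.73e-08), a 2.69-fold rise with a 95% interval of 2.33 to 3.11. Of all tested genes 9.87% passed with a rise of at least 2-fold, and 94.4% had a lower log2 fold change than Supt4a. Within each library there were 0.664, 0.627 and 0.644 Supt4a counts per Supt5 count in WT. The same ratio was 29.5, 32.8 and 20.3 in depleted libraries, 41.8-fold higher on average. Most of that rise is the loss of Supt5, the targeted gene (log2 fold change -3.94). The lesser part is the rise of Supt4a (1.43). This ratio does not depend on how libraries are scaled, and it reads as a change between groups only, since counts of genes of different length are not comparable. RefSeq lists a second mouse gene, Supt4b, a short copy on another chromosome, which was not analysed here. How reads that match both were counted is not given, so the Supt4a value is uncertain to that extent.

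**Figure D2:**
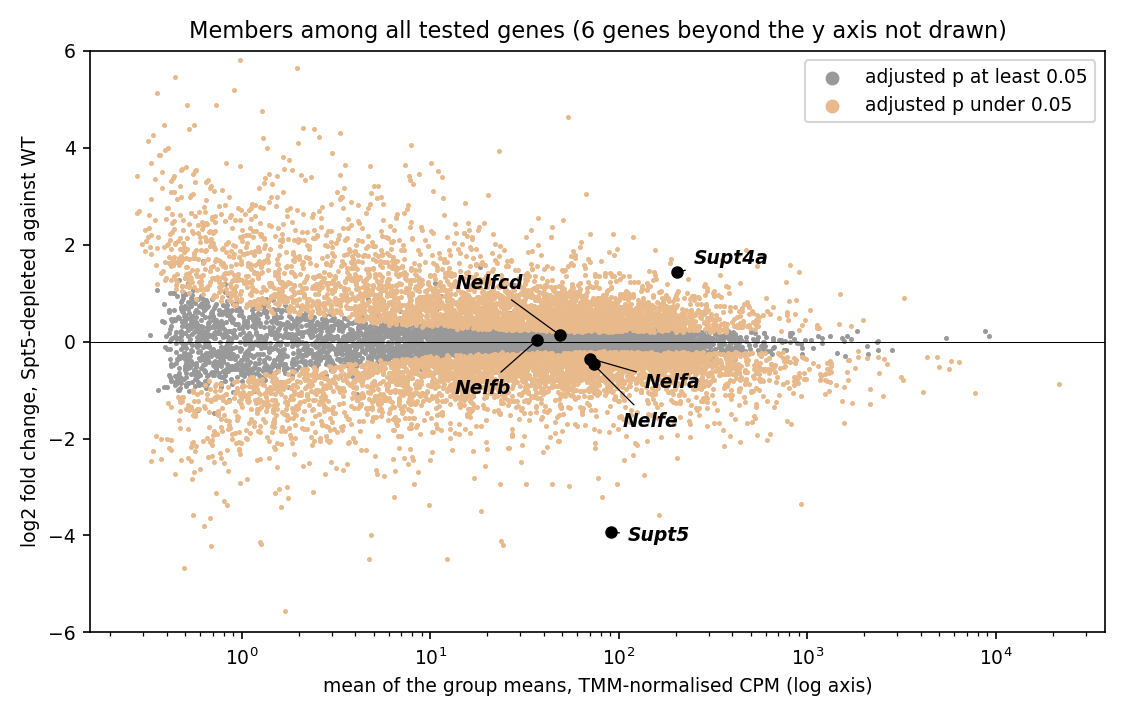
Log2 fold change of Spt5-depleted against WT libraries (y axis) against mean level (x axis, TMM-normalised CPM, log scale) for all tested genes, orange where the adjusted p was under 0.05 and grey otherwise, with the members in black. Supt5 at -3.94 is near the lower edge and Supt4a at 1.43 above 94.4% of tested genes, while the NELF genes lie between -0.47 and 0.14 in the dense middle.

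The NELF genes differed far less than the DSIF genes, and they split. Nelfa encodes the subunit that contacts the polymerase and pairs with NELF-C/D. WT libraries had 77.4, 79.5 and 80.4 CPM and depleted libraries 63.9, 62.0 and 60.1 CPM, without overlap and with little spread in either group. Nelfa fell by 0.35 ± 0.08 on the log2 scale (SE; edgeR adjusted p = 0.00173), a 1.28-fold lower level. Its row has a suffix on the gene name that may stand for overlapping genes. In RefSeq, Nelfa overlaps Nsd2, listed as Whsc1 in the table, whose mean went from 167 ± 17.6 to 142 ± 12.3 CPM (SD over 3 libraries, n = 3 per group), with a log2 fold change of -0.23 (edgeR adjusted p = 0.0542). The part of Nsd2 reads in the Nelfa value was not tested.

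Nelfe encodes the subunit with an RNA recognition domain, which binds the nascent transcript and pairs with NELF-B. WT libraries had 80.2, 76.1 and 99.4 CPM of Nelfe, and depleted libraries had 62.3, 59.5 and 62.5 CPM. All depleted libraries were below all WT libraries, and WT replicate 3 stood above the others. Nelfe fell by 0.47 ± 0.10 on the log2 scale (SE; edgeR adjusted p = 0.000999), a 1.39-fold lower level. Without WT replicate 3 the log2 fold change was -0.35 (adjusted p = 0.00154).

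Nelfb encodes the subunit that joins NELF-E to the rest of the complex. It was at 34.6, 34.5 and 40.5 CPM in WT and at 36.5, 36.9 and 38.9 CPM in depleted libraries, and the latter lay inside the WT range. Its log2 fold change was 0.04 ± 0.10 (SE; edgeR adjusted p = 0.764), with a 95% interval of the fold from 0.889 to 1.18. Nelfcd encodes NELF-C and NELF-D, forms of 1 protein that differ in where translation starts. It was at 44.2, 44.1 and 50.4 CPM in WT and at 51.1, 49.4 and 51.9 CPM in depleted libraries, with WT replicate 3 inside the range of the depleted libraries. Its log2 fold change was 0.14 ± 0.09 (SE; edgeR adjusted p = 0.203), with a 95% interval of the fold from 0.961 to 1.26. The Nelfcd row also carries the suffix. In RefSeq it overlaps Ctsz, the gene for cathepsin Z, a lysosomal protease, with means of 304 ± 32.9 and 318 ± 2.58 CPM (SD over 3 libraries) and a log2 fold change of 0.067 (edgeR adjusted p = 0.538). The part of Ctsz reads in the Nelfcd value was not tested.

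The scale matters for these small differences. With libraries scaled by their totals alone, the median over all tested genes moved on the log2 scale from 0.0047 to 0.16, and every NELF gene moved with it. Then 63.7% of all tested genes were called, 41.3% higher and 22.4% lower, and of the members 2 were higher and 2 lower. Nelfa then stood at -0.19 and no longer passed (adjusted p = 0.0523, over alternatives 0.00031 to 0.0523). Nelfcd stood at 0.30 and passed as higher (adjusted p = 0.0117, over alternatives 0.0117 to 0.429). Nelfe at -0.31, Supt5 at -3.77 and Supt4a at 1.59 passed under both scalings. In the authors' deposited table the adjusted p was 0.000324 for Nelfa, 8.15e-05 for Nelfe, 0.872 for Nelfb and 0.317 for Nelfcd, with log2 fold changes of -0.36, -0.48, 0.03 and 0.13.

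**Figure D3:**
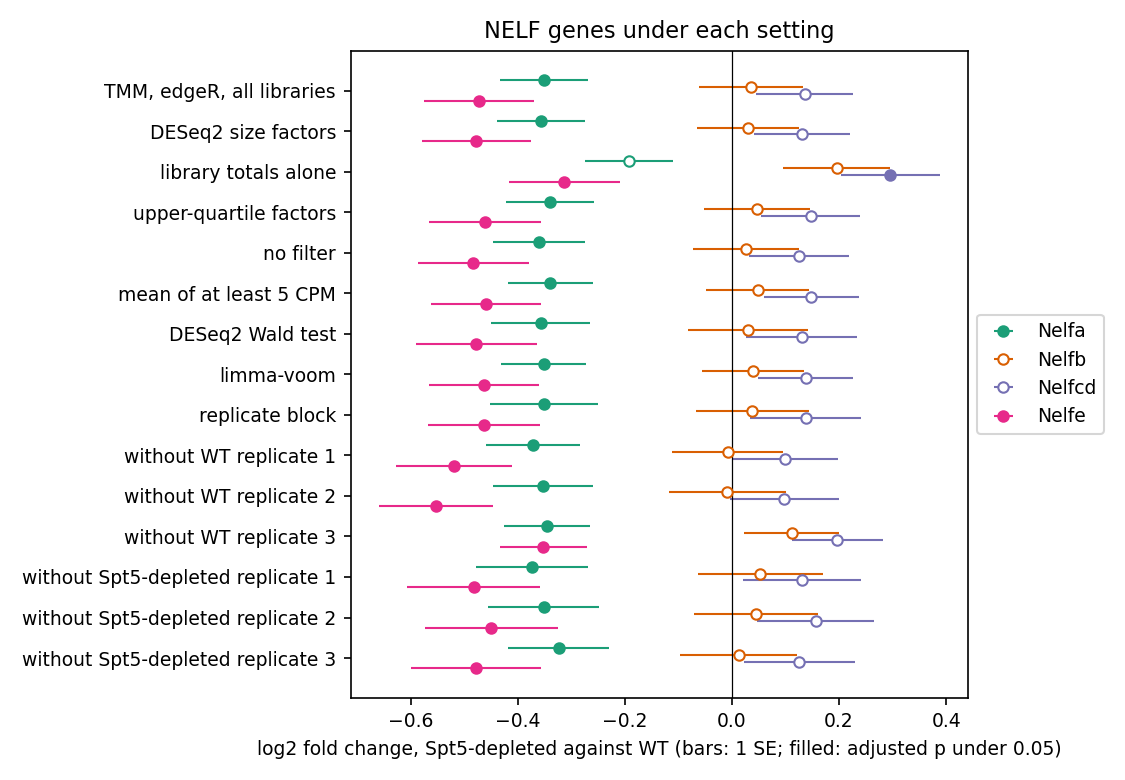
Log2 fold change of the NELF genes (x axis; bars are 1 SE, filled points passed an adjusted p under 0.05) under each way of scaling, filtering, testing or leaving out a library (y axis). Nelfa and Nelfe stay below 0 under every setting shown, Nelfa losing its call only with library totals alone, and Nelfcd passes only there.

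Ratios of counts between NELF genes of the same library avoid the question of scale. The ratio of Nelfa to Nelfe overlapped between the groups: it was 0.965, 1.04 and 0.809 in WT and 1.03, 1.04 and 0.962 in depleted libraries. The ratio of Nelfcd to Nelfe was 0.551, 0.579 and 0.507 in WT and 0.821, 0.829 and 0.830 in depleted libraries, so it was 1.52-fold higher on average and without overlap. Nelfb relative to Nelfe, the subunits that pair in the complex, went from 0.431, 0.453 and 0.407 to 0.585, 0.620 and 0.623, a 1.42-fold difference. Nelfa relative to Nelfcd, the other pair, went from 1.75, 1.80 and 1.60 to 1.25, 1.26 and 1.16, a log2 difference of -0.49. Nelfb relative to Nelfcd did not overlap either, with a smaller log2 difference of -0.10. Of all pairs of tested genes 66.7% had within-library ratios that did not overlap between the groups, so nothing particular to NELF is read from its 5 of 6 pairs without overlap.

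Supt4a counts relative to each NELF gene were 2.45-fold (Nelfcd), 2.63-fold (Nelfb), 3.44-fold (Nelfa) and 3.72-fold (Nelfe) higher in depleted libraries. In all, 10 ratios were tested over the libraries by a two-sided exact permutation test. For 9 of them p was 0.1, the smallest that 3 against 3 libraries allow (0.111 after Benjamini-Hochberg adjustment over 10 pairs), and for Nelfa to Nelfe it was 0.7. No ratio can therefore pass 0.05 by this test.

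**Figure D4:**
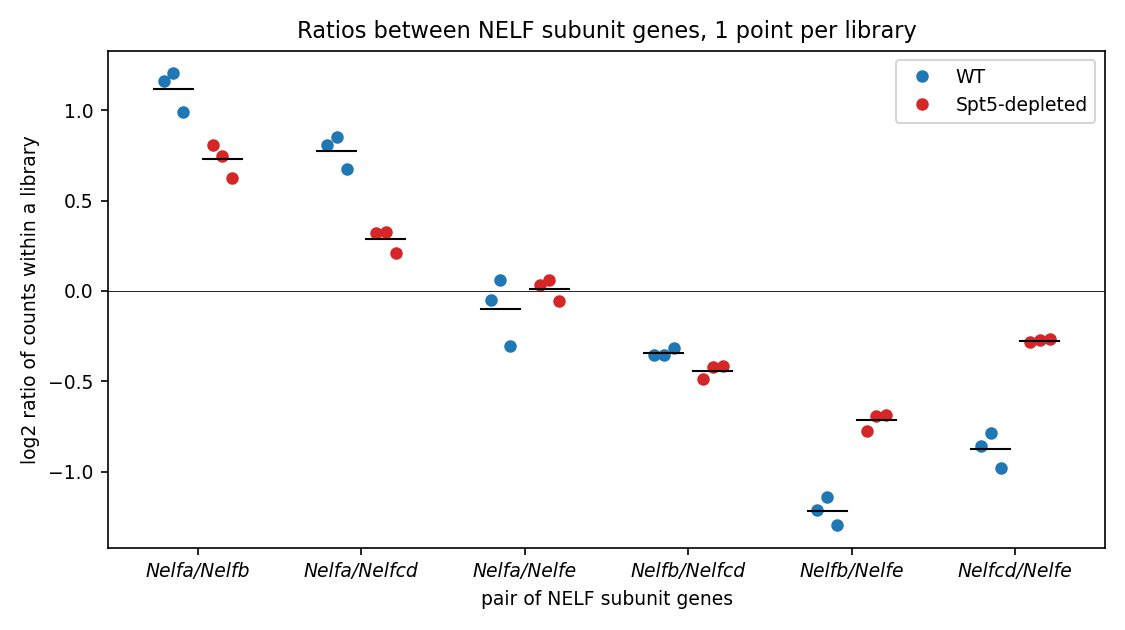
Log2 ratio of counts of 2 NELF genes in the same library (y axis) for the 6 pairs (x axis), WT in blue and Spt5-depleted in red, with group means as black lines. Nelfa/Nelfe overlaps between groups, and the other 5 pairs do not (66.7% of all pairs of tested genes do not), with the widest gap for Nelfcd/Nelfe, at -0.88 in WT and -0.27 in depleted libraries on average.

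The genes whose profile over the 6 libraries was most like that of each member were found by the root mean square difference of log2 levels, each centred on its own mean, over 9244 tested genes whose mean reached 5 CPM. With 2 groups of 3, such a match mainly says that a gene had a like fold change and a like spread. Supt4a was closest to Pdrg1 (difference 0.038), which went from 27.0 ± 3.93 to 74.1 ± 6.06 CPM (SD over 3 libraries), and to the gene model Gm5617 (0.039). The level of Gm5617 was low, 2.48 ± 0.25 CPM in WT and 7.83 ± 0.65 CPM in depleted libraries (SD over 3 libraries). Supt5 had no near match: the closest were the X-linked gene Mid1 (0.21) and Trib3, a stress-induced pseudokinase gene (0.22). Nelfa was closest to Bub3, a mitotic checkpoint gene (0.015), which fell from 301 ± 6.07 to 232 ± 7.42 CPM (SD, n = 3 each; edgeR adjusted p = 0.000803), and to Nfu1, of iron-sulphur cluster assembly (0.025). Nelfe was closest to Mrpl19, a mitochondrial ribosomal protein gene (0.022), and Cyb5r3, a cytochrome b5 reductase gene (0.038). Nelfb was closest to Rasal3 (0.014) and Lmnb2, a B-type lamin gene (0.019), and Nelfcd to Inpp5a, an inositol phosphatase gene (0.019), and Fzr1, an activator of the anaphase-promoting complex (0.032). The rows of Rasal3, Inpp5a and Mrpl19 carry the overlap suffix.

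Of 52 genes for factors that act with DSIF and NELF, 11 were higher and 18 lower, 21.2% and 34.6%, beside 31.8% and 30.6% of all tested genes. Their median log2 fold change was -0.067, beside 0.0047 for all genes, and they ranged from -0.83 to 1.18. Supt4a lay above this range, and Supt5, the gene targeted by the design, lay below it. Scaled by totals alone, 22 of the partner genes rose and 11 fell, with a median of 0.093. Among 8 genes of P-TEFb, which phosphorylates both Spt5 and NELF, and its control, 3 rose, led by Ccnt1, the cyclin T1 gene (0.81), and Larp7, of the inhibitory 7SK particle, fell (-0.83). Among 9 super elongation complex genes 3 rose, led by Aff1 (1.18), and 2 fell, led by Mllt3 (-0.60). Of 11 elongation partners that travel with the polymerase 6 fell and 0 rose, led by Ssrp1, of the histone chaperone FACT (-0.67). Among 7 capping, cap-binding and phosphatase genes 2 rose, led by Ncbp2, the small cap-binding subunit (0.65), and 3 fell, led by Ppp4r2, a subunit of phosphatase 4 (-0.40). Of 14 Integrator genes, whose complex ends transcription at paused sites, 2 rose, led by Ints9 (0.35), and 5 fell, led by Ints13 (-0.80). Polr2a, the largest polymerase subunit, rose (0.73), and Polr2m, whose product Gdown1 is found on paused polymerase, fell (-0.24).

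**Figure D5:**
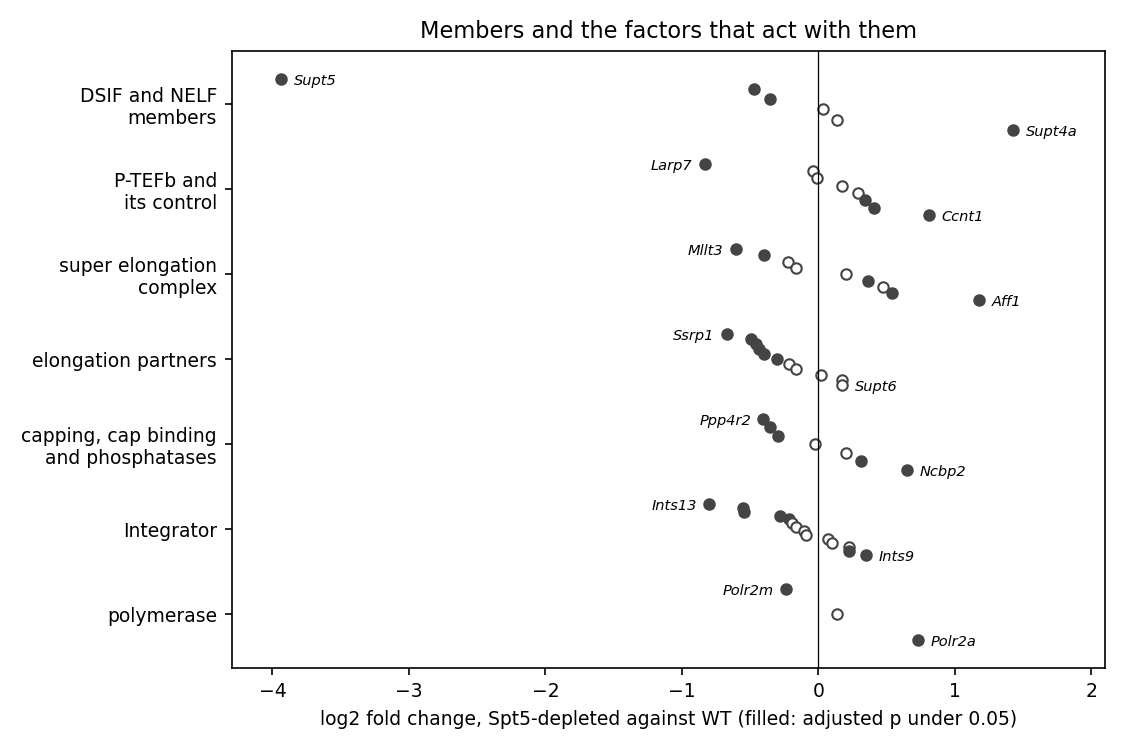
Log2 fold change of Spt5-depleted against WT libraries (x axis) for the members and for 52 genes of factors that act with them, by role (y axis), filled where the adjusted p was under 0.05. Supt4a at 1.43 and Supt5, the targeted gene, at -3.94 lie outside the range of the other factors, -0.83 to 1.18. The NELF genes lie inside it.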

How the data were processed

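RNA-seq counts of 6 libraries, 3 WT and 3 Spt5-depleted, were analysed; 18 samples of other assays were not analysed here. Trizol RNA was made into libraries with Lexogen's SENSE kit for mRNA, per the labels' protocols. The submitters' processing notes name build mm9 and the tools featureCounts 1.5.0-p1, TopHat, Bowtie2 2.1.0, cutadapt 1.10 and DESeq2 1.10.1. What each tool did, which annotation and strand setting were used, and how multiply matching reads were counted is not given in the sources used here. Raw read counts per gene were deposited by the authors, with at least 10 counts in each row. Their own log2 fold change and adjusted p-value, deposited in the same table, were quoted only where named.

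Genes were kept by edgeR's filterByExpr (12024), scaled by TMM, and tested two-sided by the robust quasi-likelihood F test of edgeR 4.0.16 in R 4.3.3. Benjamini-Hochberg adjustment ran over all tested genes, at a threshold of 0.05. TMM takes most genes to be unchanged, and there was no spike-in scale. SEs and 95% intervals were derived from the F statistic. Ratios used counts + 0.5 and profiles log2(CPM + 0.5). NELF counts were 653 to 2414 per library. The biological coefficient of variation shared over all tested genes was 0.098. For the NELF genes the coefficient of variation of CPM was 1.95% to 14.6% in WT and 2.55% to 3.48% in depleted libraries. Whether counting error or spread between libraries limits their precision more was not tested. Within each group, libraries differed beyond sampling noise, and more so in WT. The chi-square per degree of freedom was 27.6 to 32.5 for pairs of WT libraries and 6.36 to 10.7 for pairs of depleted libraries. Alternatives were other scalings, filters and tests (DESeq2 1.42.0, limma 3.58.1), the replicate number as a block, and leaving out each library.

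The members and lists were chosen with earlier results of these data known, and the members were then found in the table by gene name. Named were all members, the 2 genes most like each, and per role of the partner list the gene with the smallest p in each direction among those that passed. Promoter sequences are from RefSeq (GRCm38.p6), and overlapping genes were taken by name only.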

Additional observations from a re-analysis of the deposited data

How the results depend on the processing

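Across 14 alternatives, Supt5, Supt4a and Nelfe kept their direction and their call, and Nelfa kept its direction. With library totals alone 2 members were higher instead of 1, since Nelfcd passed at 0.30, and Nelfa missed the threshold at -0.19; 22 partner genes were then higher and 11 lower. Nelfb, which was not called under any alternative, had log2 fold changes of -0.0077 without WT replicate 1 and -0.0087 without WT replicate 2, and up to 0.11 with another library left out. With the replicate number as a block, no member gained or lost a call (Nelfa -0.35, Nelfe -0.46), and 3755 genes were higher and 3614 lower, against 3823 and 3681. Same-numbered libraries did not deviate together (correlations 0.0112, -0.076 and -0.0938), and no label says what the numbers share. Leaving out 1 library left Supt5 between -4.11 and -3.81, Supt4a between 1.36 and 1.52, Nelfa between -0.37 and -0.32, Nelfe between -0.55 and -0.35 and Nelfcd between 0.098 and 0.20, and each of the 10 ratios kept its direction, also with counts + 2.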

Other observations

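All 6 members had their highest WT level in WT replicate 3. Supt5 was 113% of its WT mean there, Supt4a 113%, Nelfa 102%, Nelfb 111%, Nelfcd 109% and Nelfe 117%. This was noticed after the values were seen. The share of all tested genes with their highest WT level in that library was not counted, so nothing particular to the members is read from it. The tested genes with a mean over all libraries between 20 and 100 CPM, where the NELF genes lie, numbered 4308. Their median log2 fold change was 0.024, with 1448 higher and 1325 lower. Supt5 is in this class by its mean over all libraries, but its WT mean was 171 CPM.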
